A study of Homo sapiens with 8 samples.

Results

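The comparison is between 2 Affymetrix arrays of HTETOP cells, out of 8 in the series. One carried RNA from cells kept for 24 h in 1 µg/ml doxycycline, and the other RNA from vehicle-treated cells. The 2 arrays were taken by their titles. HTETOP is a derivative of the HT1080 human fibrosarcoma line in which TOP2A is shut off by tetracyclines; the labels put the silencing at over 99.5%. Both groups are that same cell line, so the vehicle cells carry the regulated TOP2A too but did not receive the drug. No array in the series is of cells given doxycycline with TOP2A left on. Effects of the drug itself and of TOP2A loss therefore cannot be told apart here. Each array held RNA pooled from passages 15, 16 and 17, so the spread between cultures is not visible, and with 1 array a group no difference here has a replicate error or a p-value. The other 6 arrays, 3 of cells given 100 µM dexrazoxane for 24 h and 3 of their own vehicle cells, are used only beside these results. The labels do not say whether those arrays came from separate cultures.

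Type II topoisomerases pass one DNA double helix through a transient break in another. TOP2A is the isoform of dividing cells: it rises towards mitosis and untangles sister chromatids before they separate. TOP2B is made in dividing and resting cells alike. Dexrazoxane locks the protein clamp of either isoform in its closed form, whereas doxycycline acts in this line through the TOP2A gene. Doxycycline is also an antibiotic that can slow mitochondrial protein synthesis.

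All values are log2 levels per probe set, a group of short probes that together report on 1 transcript; a difference of 1 is a 2-fold change. A probe set was used if it was annotated to 1 gene symbol and its brighter array of the pair reached a log2 level of 6. That left 16142 of 41097 such probe sets, which cover 9658 genes. Of these genes 4168 had 2 or more usable probe sets and could be read more than once on the same arrays. A gene was counted as higher or lower when 2 or more of its probe sets differed by at least 1.2-fold (0.263 on the log2 scale) in that direction and none did so in the other. Its value is the median over its usable probe sets. Probe sets of a gene share the RNA and the array, so their number is not a number of replicates.

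The pair was very alike apart from TOP2A. By this count 11 genes were higher with doxycycline (0.264% of the 4168) and 4 were lower (0.096%). TOP2A was 1 of the 4, and no other gene of the 4168 had a median outside -0.35 to 0.38. At 1.5-fold TOP2A alone was counted (0.024%), and no gene was counted as higher. The higher genes were RIT1, PTPRS, UCKL1, TRAF4, POLH, HIPK2, JUN, MSI2, MDM2, TNRC6B and N4BP2L2. The lower genes beside TOP2A were RASEF, HAS2 and SMC3.

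**Figure D1:**
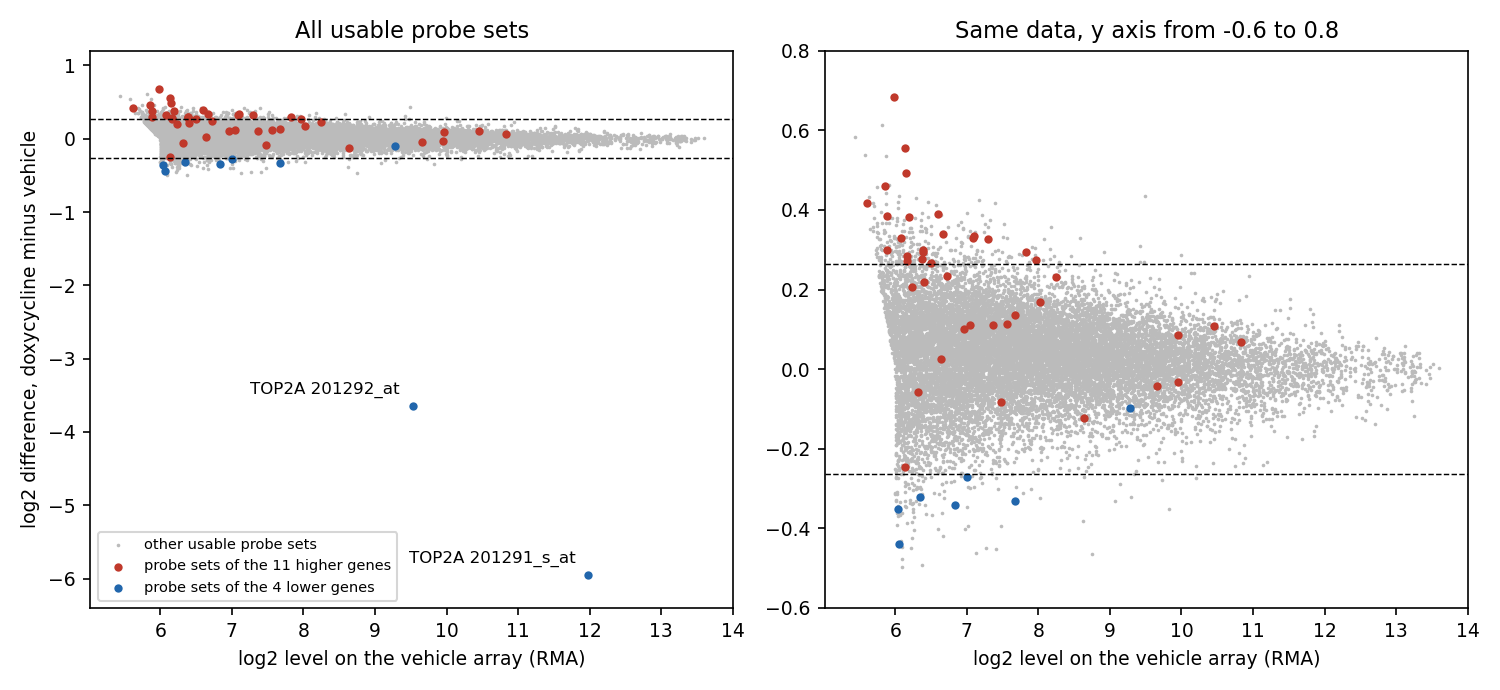
Log2 difference between the doxycycline and the vehicle array (y axis) against the log2 level on the vehicle array (x axis) for the 16142 usable probe sets, whole on the left and enlarged on the right; dashed lines mark 1.2-fold. The TOP2A probe sets lie at -3.65 and -5.96, far from all others, and the probe sets of the other counted genes lie mostly among the dim ones.

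The vehicle array read the brighter TOP2A probe set at 11.98 and the doxycycline array at 6.02, which is 62.1-fold lower, or 1.61% of the vehicle level. Written as vehicle to doxycycline, as all pairs of levels are from here on, the dimmer one read 9.52 to 5.88, which is 12.5-fold lower, or 7.97% of vehicle. In a bulk sample fewer cells with a transcript and less of it per cell cannot be told apart. With doxycycline both probe sets were about at the floor of 6, where signal and background were not separated, so these folds may understate the loss. They are not set against the silencing of over 99.5% named in the labels. Another TOP2A probe set was dim on both arrays (3.32 to 3.38) and was not used. In this annotation TOP2A lies on chromosome 17 (GRCh38.p14, 40388525 to 40417896).

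The other topoisomerase genes differed little. TOP2B, the second type II isoform, has 1 usable probe set, which read 9.75 with vehicle and 9.69 with doxycycline. TOP1, the main enzyme that nicks a single strand to relax supercoils, read 10.31 to 10.33 with its brighter probe set and 7.23 to 7.02 with its dimmer one. TOP3A, which resolves recombination intermediates, differed by -0.04 and TDP1, which removes stalled TOP1 from DNA, by 0.02. Of the 4 members with 2 or more usable probe sets, among 8 listed genes for topoisomerases and the enzymes that clear them, TOP2A was the 1 counted gene.

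SMC3, a core subunit of the cohesin ring that holds sister chromatids together, was the 1 lower gene among 11 readable members of 18 condensin and cohesin genes, and none was higher. Its probe sets read 7.0 to 6.73, 6.06 to 5.62, and 9.28 to 9.18. All of them were lower with doxycycline, and the brightest differed least. A further, dim probe set under the floor went the other way, from 2.21 to 2.61. RAD21, the cohesin subunit that closes the ring, differed by -0.12, as did the condensin subunit gene SMC2 (-0.12). The cohesin regulator gene PDS5B differed the other way, by 0.16. The median of the list was -0.02, beside 0.03 for all 4168 genes.

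The list of p53-induced genes had the highest median of the 21 lists, 0.16 beside 0.03 for all 4168 genes. Protein p53 is a transcription factor that accumulates after DNA damage and switches on genes for arrest, repair and death. Of 30 listed genes 10 had 2 or more usable probe sets. All 10 had medians above 0, where 66.3% of all 4168 genes did. At 1.2-fold 2 of the 10 were counted as higher, where the share of all genes was 0.264%. These 2, POLH and MDM2, have 4 and 5 usable probe sets. Over all genes the share counted in either direction was 1.44% with 4 usable probe sets and 1.72% with 5 or more. At 1.1-fold 5 of the 10 were counted as higher, where the share of all genes was 5.01%. None was lower at either fold. With the pair centred the list median was 0.12. The list was chosen with earlier results of these arrays known, so its direction is not independent evidence.

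POLH, the translesion polymerase that copies past ultraviolet lesions, was higher with each of its 4 usable probe sets. They read 6.19 to 6.57, 7.96 to 8.23, 6.40 to 6.61, and 6.96 to 7.06. The brightest of them was among those past 1.2-fold. MDM2, which marks p53 for breakdown and is itself induced by it, was less even. Its dimmer probe sets read 6.15 to 6.64 and 7.29 to 7.62, both past 1.2-fold. The bright ones read 9.95 to 9.92 and 10.45 to 10.56, and the last 7.04 to 7.16, none of them past 1.2-fold. The MDM2 median was 0.11, and the range over its probe sets was -0.03 to 0.49.

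Among the other p53-induced genes the largest medians were those of SESN2, a stress-induced sestrin that restrains growth signalling (0.27), PHLDA3, an inhibitor of AKT (0.27), the death receptor gene TNFRSF10B (0.25) and ZMAT3, which encodes an RNA-binding zinc finger protein (0.21). SESN2 read 7.40 to 7.82 on one probe set but 6.85 to 6.97 on the other. PHLDA3 read 7.42 to 7.65 and 7.14 to 7.44. ZMAT3 was higher on all 5 of its usable probe sets, with 1 past 1.2-fold. Each of these genes had fewer than 2 probe sets past 1.2-fold and was not counted. Lower medians belonged to FAS, another death receptor gene (0.10), the mitochondrial pore gene BAX (0.06), RPS27L (0.04) and FBXO22 (0.04).

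The promoters of these genes were read to show what sequence lies at their starts. RefSeq promoters of build GRCh38.p14 were at hand for 7 of the 10 genes, as 13 start sites. In the 250 bases before each start the p53 consensus site was searched, which is made of 2 half-sites of 10 bases placed side by side. Both strands are covered, since the site reads the same on either. The 3 windows with the fewest mismatches are shown 5′ to 3′, with the best 20 bases in capitals.
MDM2 (chr12:68808903-68808962, plus strand): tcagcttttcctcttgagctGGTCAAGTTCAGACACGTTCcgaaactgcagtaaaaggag
FAS (chr10:88991289-88991348, plus strand): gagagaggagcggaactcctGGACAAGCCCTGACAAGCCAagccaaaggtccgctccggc
RPS27L (chr15:63157507-63157566, minus strand): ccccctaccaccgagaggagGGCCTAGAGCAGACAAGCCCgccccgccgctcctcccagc

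The MDM2 and FAS windows differ from the consensus at 2 of 20 bases and the RPS27L window at 3. Among all 35116 RefSeq promoters 0.561% held a window with at most 2 mismatches and 4.36% one with at most 3. The MDM2 window belongs to the gene's downstream start sites, and those at its upstream starts had 5 mismatches. POLH had 6, SESN2 5, ZMAT3 at best 4 and BAX 4. A match describes letters only: FAS and RPS27L, with few mismatches, had smaller differences on the arrays than POLH and SESN2.

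HIPK2, a kinase that phosphorylates p53 and other transcription factors, was past 1.2-fold on its dimmest probe sets, which read 5.98 to 6.67 and 6.14 to 6.70. The others read 6.24 to 6.44, 8.24 to 8.47 and 9.96 to 10.04. All 5 usable probe sets were higher with doxycycline, and the difference was smallest on the brightest. Its median was 0.23.

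JUN, the AP-1 transcription factor gene induced by stress and growth signals, read 6.67 to 7.01 and 7.82 to 8.12. Its brighter probe sets read 10.83 to 10.90 and 9.65 to 9.61, so the brighter probe sets of JUN differed by at most 0.07. JUN was the 1 counted gene among 7 readable members of the immediate early and MAPK output list, whose median was 0.01. In that list HBEGF, which encodes a ligand of the EGF receptor, differed by 0.16 and SPRED1, a brake on RAS signalling, by -0.18.

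Other counted genes act at the membrane or in signalling. RIT1, a RAS-related small GTPase, had the highest median of the 4168 genes (0.38): its probe sets read 5.89 to 6.27, 5.86 to 6.32 and 7.56 to 7.67. The dimmer RIT1 probe sets reached the floor of 6 only on the doxycycline array. The brightest reached it on both and differed by 0.11. PTPRS, a receptor tyrosine phosphatase that binds proteoglycans, read 6.39 to 6.69 and 6.6 to 6.99, both past 1.2-fold. TRAF4, an adaptor of receptor signalling, read 6.73 to 6.96, 6.39 to 6.69, 6.38 to 6.66 and 6.64 to 6.66. The last of these TRAF4 probe sets differed least. RASEF, a Rab-type GTPase with calcium-binding EF hands, was lower: 6.83 to 6.49 and 6.03 to 5.68. Its usable probe sets gave nearly the same difference, -0.34 and -0.35.

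HAS2, the main hyaluronan synthase of mesenchymal cells, was also lower and even over its probe sets. It read 7.67 to 7.34 and 6.35 to 6.03. No matrix gene of the 13 readable members among 20 listed matrix, TGF-beta and YAP target genes was counted at 1.2-fold, and their median was -0.01. In that list the matrix glycoprotein gene THBS1 differed by -0.13 and the fibronectin gene FN1 by 0.14. These were the largest of the list in either direction.

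Other higher genes work on RNA or nucleotides. UCKL1, a uridine and cytidine kinase-like gene, read 7.10 to 7.43 and 6.16 to 6.43. MSI2, an RNA-binding regulator of translation, was higher on all 5 usable probe sets: 6.16 to 6.45, 6.08 to 6.41, 8.02 to 8.19, 7.67 to 7.81, and 7.37 to 7.48. Only the dimmest of the MSI2 probe sets were past 1.2-fold.

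TNRC6B, a partner of Argonaute in microRNA silencing, and N4BP2L2 were counted although their probe sets went both ways. TNRC6B read 7.08 to 7.41 and 5.88 to 6.18 on one pair of probe sets, but 6.13 to 5.89 and 7.48 to 7.39 on the other pair. N4BP2L2 read 5.61 to 6.03 and 6.49 to 6.76, but 6.31 to 6.26 and 8.64 to 8.52. For both genes the brightest probe set was lower with doxycycline, so the arrays give no single direction for them.

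**Figure D2:**
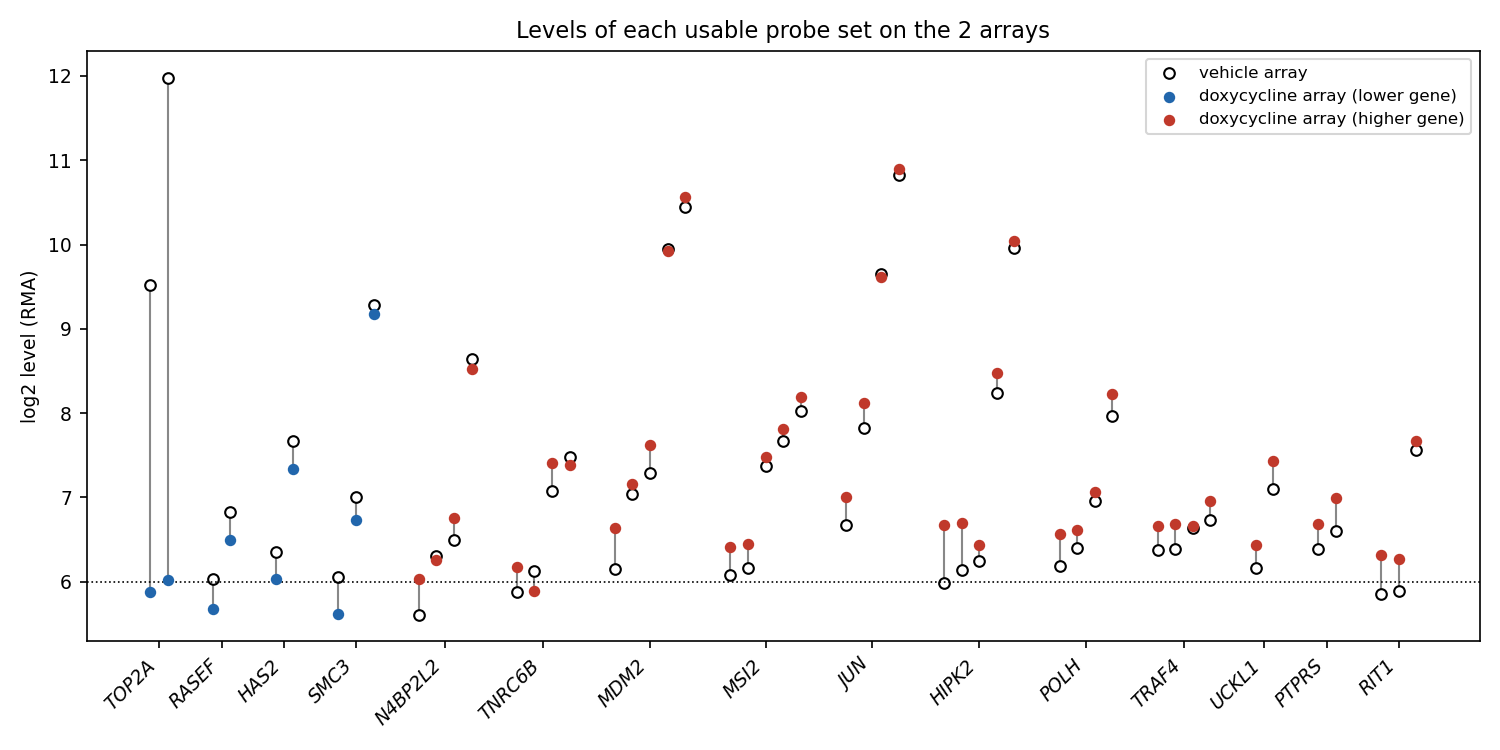
Log2 levels (y axis) of every usable probe set of the 15 counted genes, ordered by median difference; open circles are the vehicle array, filled circles the doxycycline array, and the dotted line is the floor at 6. TOP2A goes from 11.98 and 9.52 to 6.02 and 5.88, while in MDM2, JUN, HIPK2 and SMC3 the brightest probe set differs less than the dimmest.

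Among the counted genes the probe sets past 1.2-fold were mostly dim, while brighter probe sets of JUN, MDM2, HIPK2 and SMC3 were not past it. Of their 49 usable probe sets other than those of TOP2A 28 were past 1.2-fold, and these had vehicle levels of 5.61 to 7.96 with a median of 6.37. Of these 28 probe sets 21 reached the floor on both arrays. The rest, in RIT1, HIPK2, N4BP2L2, TNRC6B, RASEF and SMC3, reached it only on the array where they were higher. The floor thus selected them by that array. The difference was past 1.2-fold on the brightest usable probe set of 6 of the 15 genes: TOP2A, RASEF, HAS2, PTPRS, UCKL1 and POLH. All of these but POLH have 2 usable probe sets, and the count needs both past 1.2-fold, so their outcome was fixed. POLH has 4 usable probe sets. All usable probe sets had the same sign in 11 of the 15. Among all genes with 2 or more usable probe sets 46.5% did. For TOP2A, RASEF, HAS2, PTPRS and UCKL1 the same sign was fixed too, since both probe sets had to pass in the same direction. The scatter of the whole pair also narrowed with level: leaving out TOP2A, the SD of the differences was 0.135 for probe sets at 6 to 7 and 0.0656 for those above 10. The share past 1.2-fold was 5.90% in the first band and 0.103% in the second. How far this scatter makes up the small differences was not tested.

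The number of probe sets mattered too. Of the 2618 genes with 2 usable probe sets 5 were counted (0.191%), and of the 174 genes with 5 or more 3 were (1.72%). Within a gene the differences spanned a median of 0.109 from the lowest to the highest probe set. Near the lines, N4BP2L2 and UCKL1 were just inside 1.2-fold, with second probe sets at 0.27 each, and HEATR6, GPAT4 and CAPN15 just outside, at 0.26 each. Around the floor of 6, a probe set of N4BP2L2 (higher array at 6.03, difference 0.42) was just inside and one of HIPK2 (5.90, difference 0.15) just outside. The typical usable probe set was 0.033 higher on the doxycycline array. For another count each array was centred on its own median level over the usable probe sets, and the floor was applied again. That count was 3 higher (HIPK2, MDM2 and RIT1) and 6 lower, against 11 and 4 as deposited.

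TOP2A serves cell division, and no readable gene of the G2/M and mitosis list was counted in either direction. The cohesin gene SMC3, counted as lower, is in another list. Among 17 readable members of 36 G2/M and mitosis genes the differences ran from -0.13 to 0.10 with a median of -0.03, and 9 were below 0. The kinesin gene KIF14, which acts in cytokinesis, read 9.08 to 8.96 and 8.42 to 8.28. ECT2, which starts the cleavage furrow, had a median of -0.12 over probe sets that did not agree. Its bright one read 10.2 to 9.92, past 1.2-fold, and the other 7.48 to 7.51. Leaving out TOP2A, 0.103% of probe sets above 10 were past 1.2-fold in either direction. The centrosome kinase gene NEK2 differed by -0.10, whereas the kinesin gene KIF2C, which takes microtubule ends apart, differed by 0.10.

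The 13 readable members of 30 G1/S and replication genes ran from -0.17 to 0.06 with a median of -0.01. CCNE2, a cyclin of S-phase entry, was the lowest, at 8.40 to 8.18 and 6.95 to 6.84. The ribonucleotide reductase gene RRM2 differed by -0.05 and the flap endonuclease gene FEN1 by 0.06. Of 5 readable homologous recombination and Fanconi repair genes none was counted; FANCI differed by -0.01 and RAD51C by 0.04. No member of these 3 lists was counted even at 1.1-fold, where 5.01% of all genes were higher and 0.768% lower.

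Lists that bear on doxycycline as an inhibitor of mitochondrial ribosomes differed little. The 10 readable genes of mitochondrial translation ran from -0.01 to 0.07 (median 0.02), 6 nuclear genes of the respiratory chain from 0.02 to 0.06 (0.04), and 7 mitochondrial chaperones and proteases from -0.04 to 0.13 (-0.01). MRPS12, a mitochondrial ribosomal protein gene, had the largest difference of the first list, at 10.09 to 10.18 and 7.50 to 7.55. HTRA2, a protease of the intermembrane space, led the third (0.13). None was counted at 1.2-fold or 1.1-fold.

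Among targets of ATF4, the factor that answers amino acid and organelle stress, 10 of 12 readable genes were above 0, where 66.3% of all 4168 genes were, and none was counted. Their median was 0.07, and 0.03 with the pair centred. SESN2 belongs to this list as well. ATF3, a stress-induced transcription factor gene, read 7.57 to 7.85 and 6.79 to 6.94, and PPP1R15A, which restores translation after stress, 7.68 to 7.82 and 8.26 to 8.47. Both were counted at 1.1-fold, as 5.01% of all genes were, but not at 1.2-fold. The serine synthesis gene PSAT1 was the 1 member below 0, at -0.14.

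The other lists held no counted gene at 1.2-fold. Their medians were 0.05 for hypoxia targets, 0.04 for cholesterol synthesis, 0.02 for NRF2 targets, 0.01 for glycolysis, 0.03 for histones, 0.05 for ribosomal proteins, -0.01 for interferon response and -0.03 for metalloproteinases. In the hypoxia list JMJD6, an oxygenase gene, was counted as higher at 1.1-fold (0.17), as 5.01% of all genes were. Only 3 inflammatory genes were readable, and of them the chemokine gene CXCL8 was lower at 1.1-fold (-0.20), as 0.768% of all genes were.

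**Figure D3:**
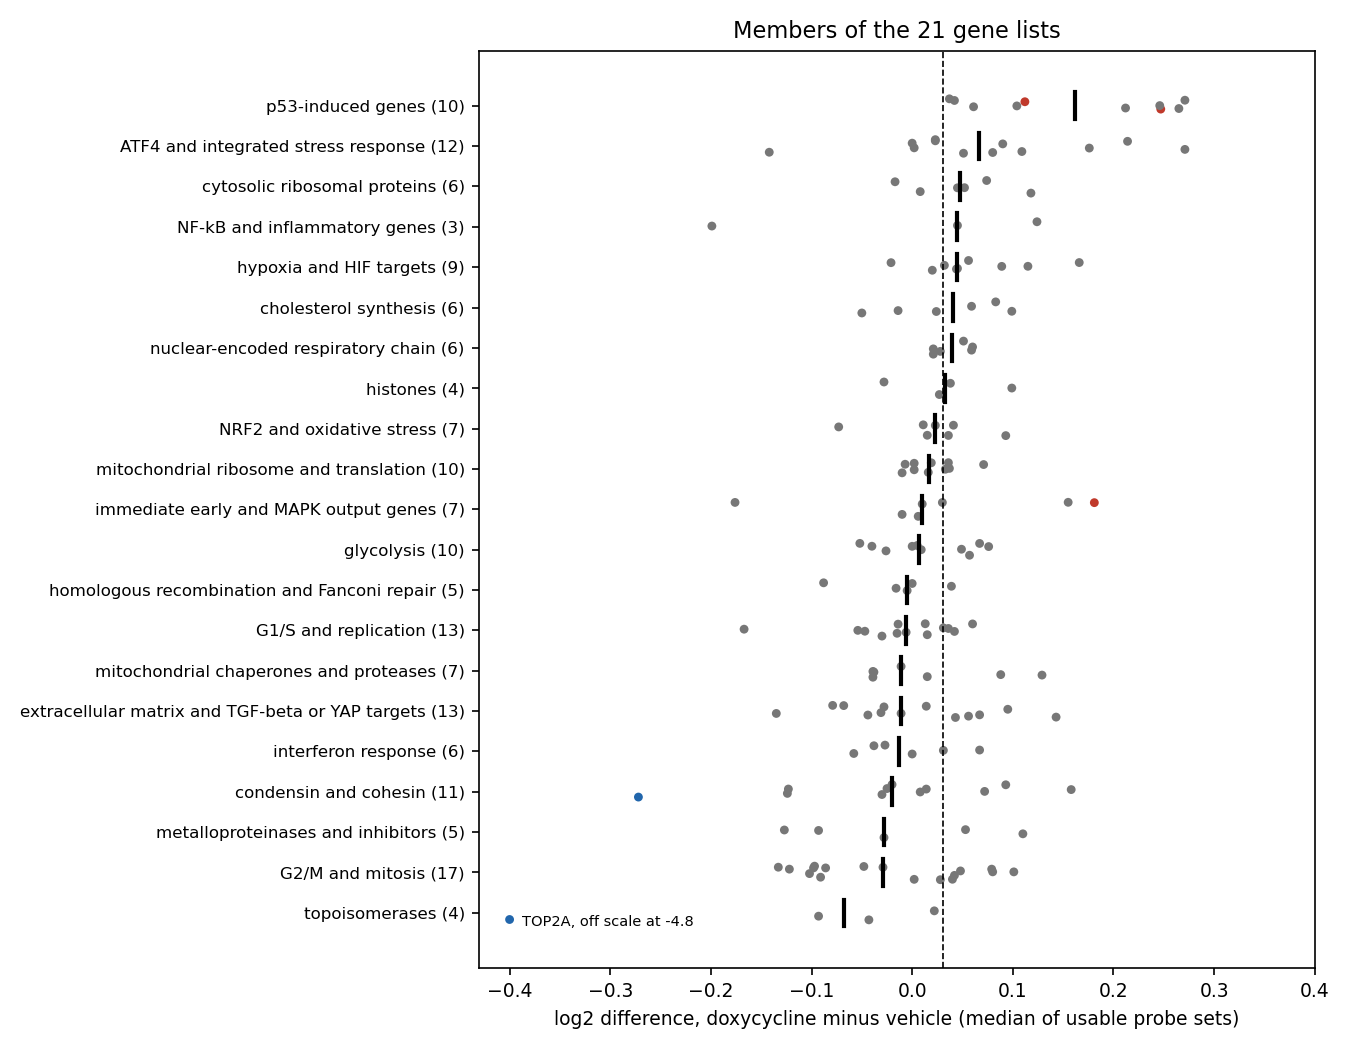
Log2 difference between the doxycycline and the vehicle array (x axis) for each readable member of the 21 lists, with the number of members in brackets; red and blue points are genes counted as higher and lower at 1.2-fold, black bars are list medians and the dashed line is the median of all 4168 genes. The p53 list lies wholly to the right of 0 with a median of 0.16, and the G2/M list straddles 0.

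Of 15 mesenchymal markers 10 reached the floor. VIM read 13.26 with vehicle and 13.23 with doxycycline, COL6A3 12.29 and 12.34, and SPARC 11.71 and 11.68; LUM (2.48 and 2.40), COL3A1 and COL1A2 were dim. Of 10 epithelial markers 3 reached the floor, led by the simple keratin gene KRT18 (10.82 and 10.94), while EPCAM (2.20 on both) and CDH1 (3.23 on both) were dim. Of 8 measured leukocyte markers 2 reached the floor, LCP1 (10.64 and 10.63) and CD3E (6.18 and 6.00), while PTPRC was dim (2.21 and 2.55). Of 8 endothelial markers 1 did, ENG (7.64 and 7.81), and CDH5 was dim (4.28 and 4.18). Summed log2 levels of the measured markers were 118.06 with vehicle and 118.32 with doxycycline for the mesenchymal list, 55.10 and 54.79 for the epithelial, 40.04 and 40.38 for the leukocyte and 39.33 and 39.19 for the endothelial list.

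The dexrazoxane arrays give these genes under a drug that blocks the enzyme rather than its gene, with their own vehicle arrays. The same probe sets were summarised by their median on each array, and both treatments are given as differences only. Whether a gene differed between the treatments was not tested, since the doxycycline pair has no replicates. TOP2A averaged 11.12 ± 0.093 (SD, n = 3) with vehicle and 9.45 ± 0.269 with dexrazoxane, a difference of -1.67 beside -4.8 with doxycycline.

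Of the 15 counted genes 12 had the same sign under both treatments, where 58.8% of all 4168 genes did. In 6 the 3 dexrazoxane arrays did not overlap the 3 vehicle arrays, in each case in the doxycycline direction; over all genes the share without overlap was 11.7% (6.26% higher and 5.4% lower). These were TOP2A, HAS2, RASEF, MDM2, POLH and TRAF4. HAS2 averaged 7.48 ± 0.115 (SD, n = 3) with vehicle and 6.66 ± 0.253 with dexrazoxane, a difference of -0.82 beside -0.33. MDM2 averaged 8.0 ± 0.139 and 8.29 ± 0.0612 (0.29 beside 0.11). For POLH the means were 7.26 ± 0.0454 and 7.40 ± 0.0761 (0.14 beside 0.25), and for TRAF4 7.06 ± 0.107 and 7.35 ± 0.150 (0.29 beside 0.26). RASEF differed by -0.10, beside -0.35, and its lowest vehicle and highest dexrazoxane array both read 6.84, so its lack of overlap rests on a gap smaller than the rounding.

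For the other 9 counted genes the dexrazoxane and vehicle arrays overlapped. SMC3 averaged 7.94 ± 0.288 (SD, n = 3) with vehicle and 7.52 ± 0.394 with dexrazoxane, RIT1 7.11 ± 0.628 and 7.58 ± 0.538, and PTPRS 7.23 ± 0.168 and 7.48 ± 0.176. With 1 array left out the differences ranged from -0.58 to -0.20 for SMC3, from 0.13 to 0.74 for RIT1 and from 0.14 to 0.34 for PTPRS. JUN differed by 0.05, TNRC6B by 0.06 and UCKL1 by 0.03, and their signs changed when 1 array was left out, as did those of HIPK2 (-0.17) and N4BP2L2 (-0.07). HIPK2, MSI2 (-0.07) and N4BP2L2 were the genes with opposite signs under the treatments.

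**Figure D4:**
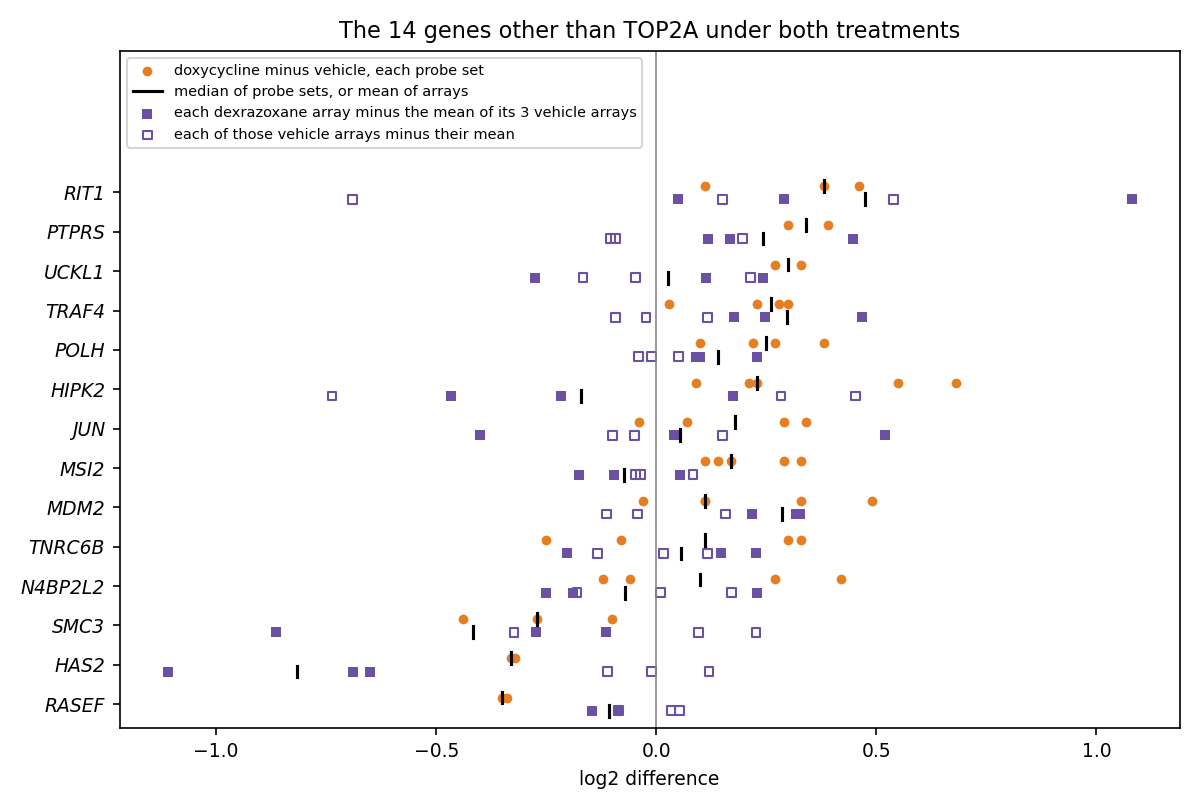
Log2 differences (x axis) of the 14 counted genes other than TOP2A; orange circles are single probe sets of the doxycycline pair, filled squares single dexrazoxane arrays and open squares single dexrazoxane vehicle arrays, both relative to the mean of those 3 vehicle arrays, and black bars are medians or means. HAS2 and RASEF have negative and MDM2, POLH and TRAF4 positive medians and means under both treatments, although 1 MDM2 probe set lies at -0.03.

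The lists gave these values under both treatments, side by side and without a test. The G2/M list had a median of -0.03 with doxycycline and -0.45 with dexrazoxane, and the G1/S list -0.01 and -0.45. In these lists the dexrazoxane and vehicle arrays overlapped for ECT2, KIF14, KIF2C, NEK2, CCNE2, FEN1, RFC3 and RRM2. KIF14 averaged 8.79 ± 0.409 (SD, n = 3) with vehicle and 8.31 ± 0.352 with dexrazoxane, and CCNE2 7.50 ± 0.434 and 6.90 ± 0.608. Repair genes gave -0.01 and -0.39, and condensin and cohesin genes -0.02 and -0.33. The p53-induced genes gave 0.16 and 0.19. The median of all 4168 genes was 0.03 with doxycycline and -0.001 with dexrazoxane. For scale, the same count set 381 to 1274 genes apart (9.14% to 30.6%) between any 2 replicate arrays from the dexrazoxane experiment, against 15 in the doxycycline pair. The doxycycline pair held pooled RNA, and whether both sets of arrays were normalized in one run is not stated. These counts are therefore given side by side only.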

How the data were processed

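Levels are the log2 values per probe set that the authors deposited; per the submitters' processing notes they come from RMA, which corrects background, equalises the distributions of arrays and summarises probes. Its version, and whether all 8 arrays were processed together, are not given in the sources used here. Array medians were 4.82 (vehicle) and 4.81 (doxycycline), and 499 usable probe sets (3.09%) read the same on both to every deposited decimal. The number of arrays limits precision; only differences within a treatment were compared.

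Probe sets were named by GEO's platform annotation of 2016: 41097 had 1 symbol, 1801 several and 11777 none. Symbols of 41043 were updated by Entrez identifier to the RefSeq table of GRCh38.p14. Differences, medians and counts were computed in Python 3.11.15 with pandas 2.3.3. Counting was tested on simulated data whose planted shifts exceeded every gene median counted here except that of TOP2A. The simulated scatter was smaller than that of this pair. That check therefore does not show how often small differences are miscounted here. No test was run. Named were TOP2A, TOP2B, up to 12 genes in each direction and up to 4 members of each list; other names were chosen after their values were seen. Of the repair genes the rule takes 2 are not reported here. The members and lists were chosen with earlier results of these data known. Alternatives were other floors, folds, scalings and probe set choices.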

Additional observations from a re-analysis of the deposited data

How the results depend on the processing

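The count of 11 higher genes became 28 with the floor at 5, 1 at 7 (JUN) and 118 with no floor, 209 at 1.1-fold and 0 at 1.5-fold. It was 5 without probe sets ending in _s_at or _x_at, and 3 when the pair was centred, when it was quantile normalized, and when the brightest probe set had to pass too (an alternative chosen after seeing the data). The count of 4 lower genes became 15, 1 (TOP2A), 122, 32 and 1 under the same floors and folds and 1 without those probe sets (HAS2, since TOP2A then has 1 usable probe set, at -3.65); it was 6 centred, 5 quantile normalized and 3 with the brightest. Floors and folds change how many probe sets can pass. A counted gene with 2 usable probe sets always meets the rule on the brightest. For the other settings the cause was not tested. Of the 5 list members counted, 2 were counted with the floor at 7, 1 without those probe sets, and 3 centred or quantile normalized. TOP2A stayed between -3.65 and -4.84 and TOP2B between -0.06 and -0.10 in the alternatives run. N4BP2L2 turned to -0.12 with the floor at 7. Of 78 other values of counted genes 70 moved by less than the spread over their probe sets, and of 123 list medians 120 by less than the spread over members. With 1 dexrazoxane or vehicle array left out, 10 to 12 counted genes shared the doxycycline sign. No paired analysis was possible because the doxycycline comparison has 1 array a group and comes from no test; the numbered dexrazoxane arrays would allow one, which was not made here.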

Other observations

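At 1.1-fold 32 genes were lower and 209 higher with doxycycline (0.768% and 5.01% of 4168); the genes named here were chosen after their values were seen. PPIF, which encodes cyclophilin D of the mitochondrial matrix, had the lowest median among those not counted at 1.2-fold, -0.30, and its probe sets were bright, with a median level of 10.29 with vehicle and 9.99 with doxycycline. The chromatin-tethering gene PSIP1 differed by -0.14 (9.39 and 9.25) and CEP57, a centrosomal protein gene, by -0.11. With dexrazoxane these 3 genes differed by -0.13, -0.42 and -0.31. Among the higher genes TERF2, which protects telomere ends, differed by 0.19, the vitamin D receptor gene VDR by 0.19, the caspase inhibitor gene XIAP by 0.17, the growth arrest gene GADD45B by 0.12 and the DNA ligase gene LIG3 by 0.11. Their dexrazoxane differences were 0.13, 0.14, 0.07, 0.27 and -0.02.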
